A study of Homo sapiens with 15 samples.

Results

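A set of 9 genes that govern the G1 phase of the cell cycle was followed: the D-type cyclins CCND1, CCND2 and CCND3, their kinases CDK4 and CDK6, the CDK inhibitors CDKN1B, CDKN1C and CDKN2C, and RB1, the protein that these kinases act on. They were taken by name from a table of 55773 genes by 15 libraries, and all 9 passed the filter on low values in both experiments. The data were poly(A) RNA-seq profiles of HEK293-derived cells, an established human kidney line, in 5 groups of 3 libraries. For overexpression, Flag/HA-ZC3H7A, Flag/HA-ZC3H7B or a Flag/HA control was induced in Flp-In T-REx 293 cells by 24 h of doxycycline at 1 µg/mL, which all 3 groups received. In the depletion experiment, DD is the label of ZC3H7A-knockout cells that also carry shZC3H7B, an shRNA, and Parental that of wild-type cells with the control shRNA shCTR. Cells of both groups had been selected with puromycin at 5 µg/mL and released from it 2 passages before collection. ZC3H7A and ZC3H7B are zinc-finger proteins that bind RNA. The labels call the overexpression replicates independent. The sources used here do not say whether the 3 DD and the 3 Parental samples were separate cultures, or how many clones each line holds, and the p-values of that comparison measure only the spread between these samples.

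As background, D-type cyclins bind CDK4 or CDK6, and the active kinase phosphorylates RB1, which then releases E2F factors that switch on genes for DNA replication. CDKN2C (p18) binds the free kinases and keeps the cyclin out, whereas CDKN1B (p27) and CDKN1C (p57) bind the assembled cyclin-CDK complexes. HEK293 cells carry adenovirus E1A, a protein that binds RB1 and its relatives and so loosens this control in the line used here.

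Depth lay between 45.5 and 57.6 M reads a library for overexpression and between 12.2 and 15.5 M for depletion, whose libraries were made with another protocol, so levels were compared only within an experiment. Replicates were not equally tight. The median distance of a gene from its group mean on the log2 scale, over genes averaging at least 100, was 0.0955 in ZC3H7A replicate 3 and 0.104 in Parental replicate 3, and 0.0224 to 0.0799 in the other 13 libraries. Of 8 marker genes of HEK293 cells, all 8 reached 10 normalized counts in each overexpression library, and 7 did so in every DD and Parental library. Of the leukocyte markers, PTPRC and CD3E were at 0 in every DD and Parental library and at most 1.18 in any overexpression library, and LYZ was at most 6.66 in any of the 15.

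The RNA of the proteins under study was checked first. ZC3H7A reached 10546, 10131 and 12898 normalized counts with its transgene, against 3179.6, 3374 and 3223 in the control, and ZC3H7B reached 28082, 26712 and 26632 with its transgene, against 5951, 5818 and 6044. The other gene of the pair differed from the control as well. ZC3H7A was 1.60-fold lower with ZC3H7B than in the control (log2 fold change -0.68, limma adjusted p = 6.91e-06). ZC3H7B was 1.34-fold higher with ZC3H7A than in the control (log2 fold change 0.42, limma adjusted p = 5.19e-06). ZC3H7B was 5.96-fold lower in DD than in Parental (limma adjusted p = 4.19e-09). ZC3H7A had 1639.9, 1561 and 1771 counts in DD, against 1585, 1528 and 1684 in Parental, so its RNA was not lower in the libraries labelled as knockout (log2 fold change 0.05, limma adjusted p = 0.67).

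The coding sequences of these genes differ widely in the third base of their codons. RB1 ended 66.3% of its 928 codons in A or T and stood at the 95.4th percentile of 19044 human coding sequences, whose median was 39.3%. CCND1 ended 12.2% of its 295 codons so and stood at the 2.74th percentile. CDK4 with 46.2% and CDK6 with 41.1% lay close together near the middle. The stretches of 60 codons printed here are, in each gene, the successive window whose share is nearest to that of the whole coding sequence, with the third base of a codon in capitals where it is A or T. They show the extremes of the set (RB1 and CCND1, on chromosomes 13 and 11) and the pair of kinases that moved in opposite directions on overexpression (CDK4 and CDK6, on chromosomes 12 and 7). The letters are the coding strand of GENCODE 29, read 5′ to 3′.
RB1, codons 481 to 540, 40 of 60 ending in A or T: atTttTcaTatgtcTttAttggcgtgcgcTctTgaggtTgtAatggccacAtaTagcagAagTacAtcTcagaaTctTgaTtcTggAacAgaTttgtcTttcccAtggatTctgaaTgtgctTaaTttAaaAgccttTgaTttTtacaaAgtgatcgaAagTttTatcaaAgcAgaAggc
CCND1, codons 1 to 60, 6 of 60 ending in A or T: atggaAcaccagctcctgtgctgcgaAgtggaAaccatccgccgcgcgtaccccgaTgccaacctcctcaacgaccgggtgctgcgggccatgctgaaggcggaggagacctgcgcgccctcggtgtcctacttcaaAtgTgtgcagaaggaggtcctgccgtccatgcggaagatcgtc
CDK4, codons 121 to 180, 27 of 60 ending in A or T: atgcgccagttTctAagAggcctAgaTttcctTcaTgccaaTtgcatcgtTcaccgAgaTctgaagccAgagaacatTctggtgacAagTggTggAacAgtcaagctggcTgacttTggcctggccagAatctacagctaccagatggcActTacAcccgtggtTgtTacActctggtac
CDK6, codons 61 to 120, 26 of 60 ending in A or T: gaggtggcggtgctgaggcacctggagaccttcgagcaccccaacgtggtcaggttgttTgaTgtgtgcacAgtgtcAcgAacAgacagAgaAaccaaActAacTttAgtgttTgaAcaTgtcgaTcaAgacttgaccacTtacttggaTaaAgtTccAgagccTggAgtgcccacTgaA

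The overall pattern was split rather than one-sided. With ZC3H7A, 3 members rose (CCND1, CCND3 and CDK4), 3 fell (CDK6, CDKN1B and RB1) and 3 did not pass the test. Across all 17673 genes tested in this comparison 75.9% were called, 34.7% as higher and 41.2% as lower, so a called member is what most genes were. With ZC3H7B, 3 members rose (CCND3, CDK4 and CDKN2C), 5 fell (CCND1, CCND2, CDK6, CDKN1C and RB1) and CDKN1B did not pass, against 69.6% of all genes called, 32% higher and 37.6% lower. Between ZC3H7A and ZC3H7B, 3 members were higher with ZC3H7A (CCND1, CCND2 and CDKN1C), 3 were lower (CDKN1B, CDKN2C and RB1) and 3 did not pass, against 44.3% called of all genes, 23.9% higher and 20.4% lower. In DD, RB1 rose, CCND1, CCND2 and CDK4 fell and 5 did not pass, against 29.5% called of 18494 genes, 14.7% higher and 14.8% lower. A gene was called where limma gave a Benjamini-Hochberg adjusted p under 0.05 over all tested genes. The comparisons of ZC3H7A and of ZC3H7B with the control share the 3 control libraries, so their results are not independent of each other.

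A change of at least 1.5-fold was found for 1 of the 9 members with ZC3H7A, 3 with ZC3H7B, 2 between the proteins and 3 in DD. With ZC3H7A, RB1 passed that size as lower and no member as higher, where 36.7% of all genes passed it, 13.4% as higher and 23.4% as lower. With ZC3H7B, RB1, CDK6 and CDKN1C passed it as lower and none as higher, where 28.3% of all genes did, 8.7% as higher and 19.6% as lower. Between the overexpressed proteins CDKN1C passed it as higher and RB1 as lower with ZC3H7A, where 11.5% of all genes did, 5.69% as higher and 5.78% as lower. In DD, RB1 passed it as higher and CCND1 and CCND2 as lower, where 11% of all genes did, 4.47% as higher and 6.55% as lower. Several of these folds lie close to the limit: with ZC3H7B, RB1 was 1.50-fold and CDK6 1.54-fold lower, and with TMM factors 1 member was past it as lower and 1 as higher. The libraries of the groups did not overlap for 6, 8, 6 and 7 of the 9 members in the comparisons in the order given, where 77.9%, 77.1%, 49.2% and 43% of all genes did not overlap.

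**Figure D1:**
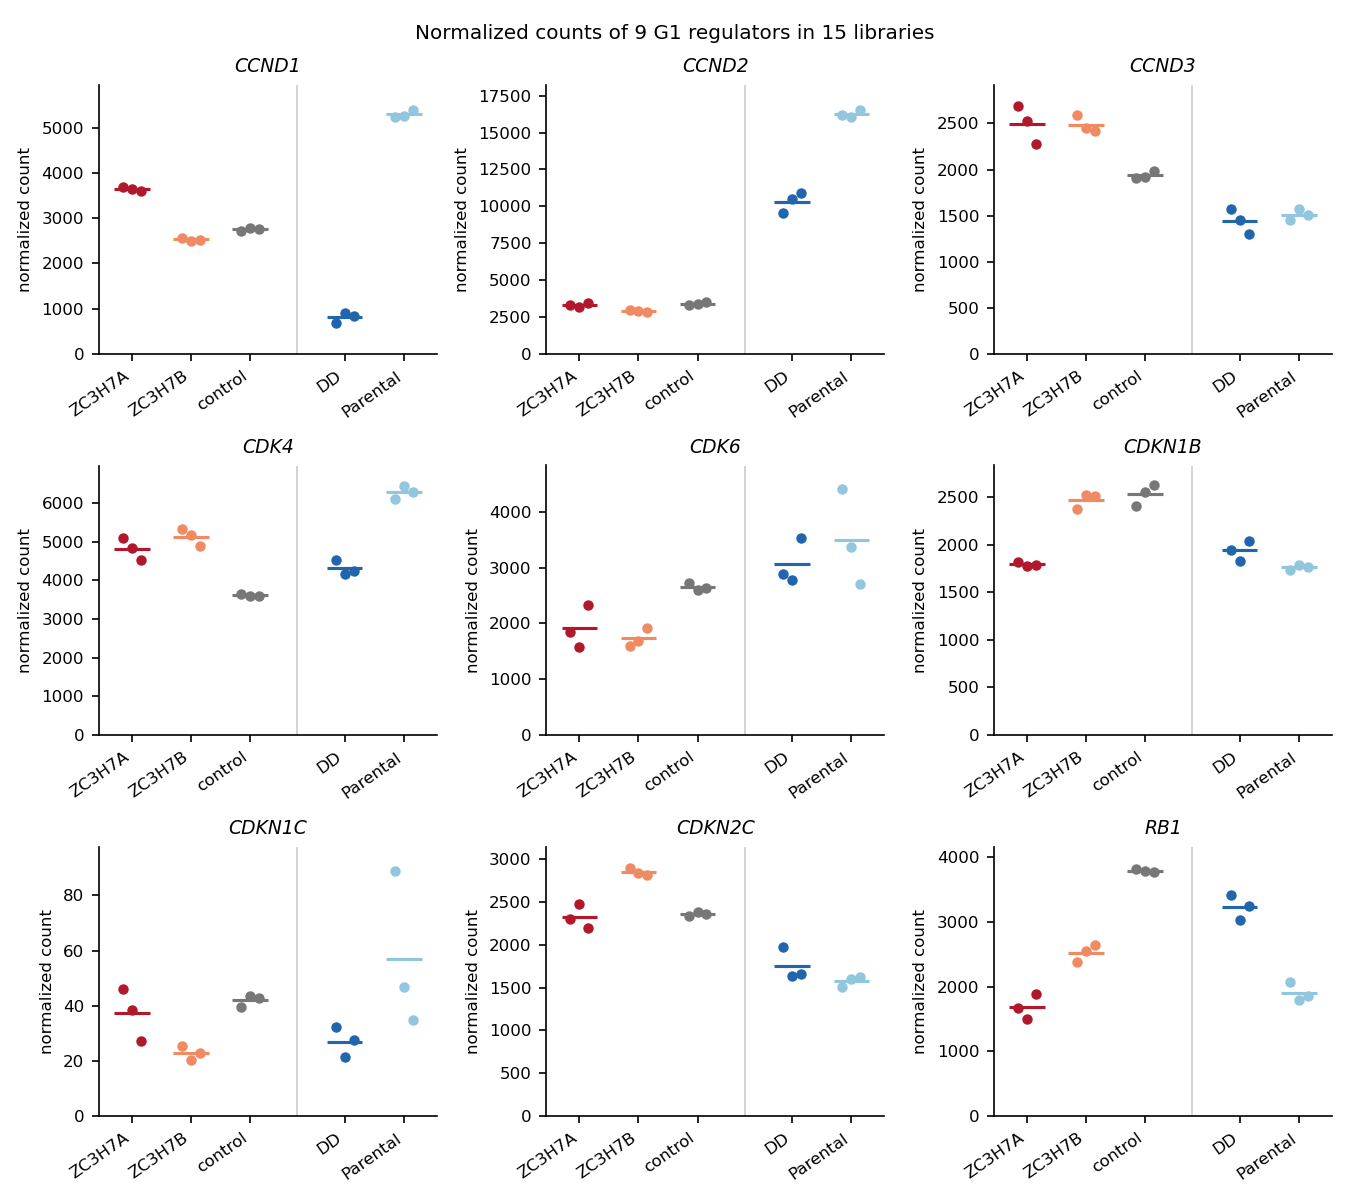
Normalized count (y axis, linear from 0) of each of the 9 genes in every library (points), with the group mean as a line, for ZC3H7A, ZC3H7B and control and, right of the grey line, DD and Parental. CCND1 sits between 687 and 909.8 in DD and between 5236 and 5379 in Parental, and RB1 sits between 1497 and 1887 with ZC3H7A and between 3771 and 3818 in the control.

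**Figure D2:**
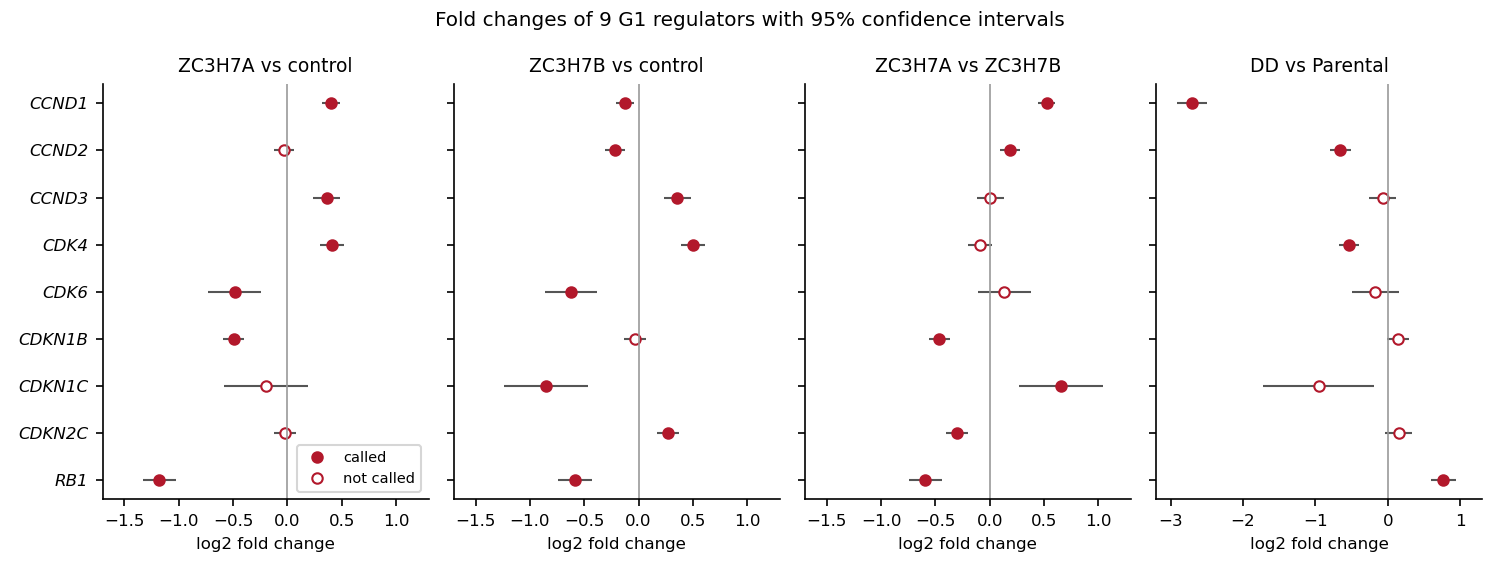
Log2 fold change (x axis, first group over second) of the 9 genes in the 4 comparisons, with 95% confidence intervals from limma as bars; filled points were called and open points were not. The x axis of DD against Parental is longer, since CCND1 reaches -2.71 there.

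Among the D-type cyclins, CCND1 changed most in DD. CCND1, the cyclin D1 that mitogens induce in many cell types, had 687, 909.8 and 847 normalized counts in the DD libraries, against 5236, 5263 and 5379 in the Parental libraries. Every DD library was far below every Parental one, a 6.53-fold lower mean (log2 fold change -2.71, SE 0.0954, limma adjusted p = 1.13e-08). Only 0.492% of the tested genes had a log2 fold change as low or lower. In bulk RNA, fewer cells that express a gene and less RNA per cell cannot be told apart. The 10 tested coding genes nearest to CCND1 on chromosome 11, 5 on each side, lay between -0.12 and 0.51 in the same comparison, and none of them was called lower. ORAOV1, which shares 497 exon bases with CCND1 on the opposite strand in the annotation, where it is named LTO1, was higher in DD (log2 fold change 0.51, limma adjusted p = 0.00855).

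On overexpression the changes of CCND1 were smaller and of unlike sign. CCND1 had 3678, 3632 and 3598 counts with ZC3H7A, against 2718, 2773 and 2769 in the control, with no overlap (log2 fold change 0.40, SE 0.0363, limma adjusted p = 9.07e-07). With ZC3H7B it had 2569, 2493 and 2518, all below the same controls (log2 fold change -0.12, SE 0.0363, limma adjusted p = 0.00894). That fall was small, and it did not pass under other scalings (log2 fold change -0.03 with TMM factors, limma adjusted p = 0.52). The direct comparison of ZC3H7A with ZC3H7B gave a log2 fold change of 0.53 (95% confidence interval 0.45 to 0.60, limma adjusted p = 3.92e-07).

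CCND2, cyclin D2, was the most abundant D-type cyclin per length in the depletion experiment. It had 9546, 10514 and 10886 counts in DD, against 16171, 16091 and 16542 in Parental, again with all DD libraries below all Parental ones (log2 fold change -0.66, SE 0.0668, limma adjusted p = 2.66e-05). Counts with ZC3H7A were 3310.3, 3211 and 3423, within the range of the control at 3282, 3361 and 3493, or just below it. Their log2 fold change was -0.03 (95% confidence interval -0.12 to 0.07, limma adjusted p = 0.57). With ZC3H7B the counts were 2974, 2934 and 2831, all lower than in the control (log2 fold change -0.21, SE 0.0425, limma adjusted p = 7.12e-04). CCND2 shares 1115 of its 7157 exon bases with annotated genes on either strand, of which CCND2-AS1 averaged at most 13.0 normalized counts in any group.

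CCND3, cyclin D3, rose in both overexpressions and was not called in DD. It had 2688, 2529 and 2278 counts with ZC3H7A and 2588, 2454 and 2413 with ZC3H7B, all above the control at 1913, 1924 and 1985. The log2 fold changes were 0.36 for each (SE 0.0576, limma adjusted p = 1.05e-04 with ZC3H7A and 1.48e-04 with ZC3H7B). Their difference was 0.00 (95% confidence interval -0.12 to 0.13). In DD the counts were 1574, 1457 and 1298, overlapping with 1457, 1573 and 1508 in Parental (log2 fold change -0.07, 95% confidence interval -0.26 to 0.11, limma adjusted p = 0.57).

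Counts per kilobase of exon put the 3 cyclins on a common scale and show how their pool was made up. In DD the pool summed to 1859 ± 96.6 counts per kb, against 3629 ± 48.5 in Parental (SD, n = 3 each). CCND1 made up 9.05% ± 0.865 of it in DD, against 30.2% ± 0.0331 in Parental, while CCND2 made up 77.5% ± 1.52 in DD, against 62.6% ± 0.295 in Parental. CCND3 took 13.4% ± 1.95 of the smaller pool in DD, against 7.18% ± 0.287 in Parental, at a level that was not called as different. The pool was thus poorer in CCND1 in every DD library, at 8.14% to 9.87%, than in any Parental library, at 30.2%.

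With ZC3H7A the pool summed to 1646 ± 36.8 counts per kb, with ZC3H7B to 1358 ± 31.4 and in the control to 1377 ± 26.3 (SD, n = 3 each). CCND1 was the largest component by exon length in all 3 groups, at 45.7% with ZC3H7A, 38.5% with ZC3H7B and 41.4% in the control. The share of CCND3 was 26.1% with ZC3H7A and 31.5% with ZC3H7B, against 24.3% in the control. The order between CCND1 and CCND2 depends on the length used, since by coding length CCND2 held 37.1% and CCND1 31.5% with ZC3H7B. The same holds in the control, where CCND2 held 42.2% and CCND1 33.7% by coding length.

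**Figure D3:**
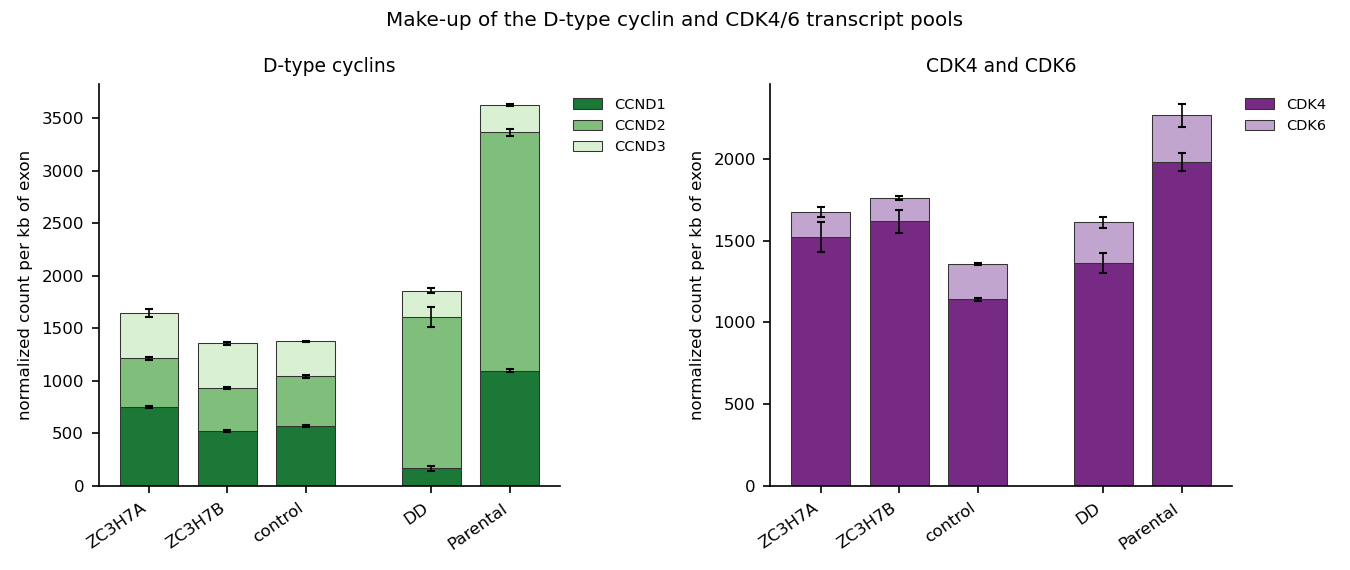
Stacked bars of normalized counts per kb of exon (y axis, from 0) for the D-type cyclins (left) and for CDK4 and CDK6 (right) in the 5 groups; each segment is a mean of 3 libraries and the error bar at its top is the SD of that segment. The dark CCND1 segment is 169 in DD and 1096 in Parental, and CDK6 is the smaller kinase segment in all 5 groups.

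The kinases CDK4 and CDK6 moved in opposite directions on overexpression. CDK4 had 5109, 4827 and 4518 counts with ZC3H7A and 5329, 5169 and 4883 with ZC3H7B, all above the control at 3651, 3591 and 3603. The log2 fold changes were 0.41 (SE 0.0496, limma adjusted p = 9.83e-06) with ZC3H7A and 0.50 (SE 0.0496, limma adjusted p = 2.71e-06) with ZC3H7B. The rise with ZC3H7B exceeded or equalled that of 88.1% of the tested genes.

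CDK6 had 1849.8, 1579.9 and 2331 counts with ZC3H7A and 1595, 1681 and 1916 with ZC3H7B, all below the control at 2728, 2599.8 and 2642. The ZC3H7A libraries were spread out, at a coefficient of variation of 19.8%, against 2.45% in the control. Log2 fold changes were -0.49 (SE 0.112, limma adjusted p = 0.00167) with ZC3H7A and -0.62 (SE 0.112, limma adjusted p = 3.31e-04) with ZC3H7B. The difference between ZC3H7A and ZC3H7B was not called (log2 fold change 0.14, limma adjusted p = 0.35). It became called without ZC3H7A replicate 2 (0.27, limma adjusted p = 0.0396) and was -0.01 without ZC3H7A replicate 3. The chromosome 7 genes around CDK6 fell as well: 9 of the 10 nearest tested coding genes were called lower with ZC3H7A, with a median log2 fold change of -0.65 over the 10, and 9 of 10 with ZC3H7B, with a median of -0.56. The part of the position in the fall of CDK6 was not tested.

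In DD, CDK4 fell and CDK6 did not pass the test. CDK4 had 4529.6, 4167 and 4246 counts in DD, against 6101, 6439 and 6300.3 in Parental, without overlap (log2 fold change -0.54, SE 0.0633, limma adjusted p = 7.63e-05). Of its 10 nearest tested coding genes on chromosome 12, 6 were called lower and none higher in DD, with a median log2 fold change of -0.46. TSPAN31, which lies on the opposite strand and shares 1369 of the 3168 exon bases of CDK4, was also lower in DD (log2 fold change -0.39, limma adjusted p = 0.0044). On overexpression TSPAN31 stayed at -0.01 with ZC3H7A and 0.05 with ZC3H7B and was not called in either. The counting is not stated to use strand, so reads from the shared bases cannot be told apart.

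CDK6 had 2882, 2769.6 and 3524 counts in DD, against 4416, 3370.0 and 2710.1 in Parental, and the groups overlapped (log2 fold change -0.17, 95% confidence interval -0.49 to 0.15, limma adjusted p = 0.41). The value depends on single libraries. It was -0.34 (limma adjusted p = 0.00926) without Parental replicate 3 and 0.01 without Parental replicate 1.

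CDK4 was the more abundant kinase per kb of exon in every group. It made up 90.6% ± 2.10 of the CDK4 and CDK6 pool with ZC3H7A and 92% ± 1.05 with ZC3H7B, against 84% ± 0.212 in the control (SD, n = 3 each). In DD it made up 84.5% ± 1.91, against 87.4% ± 2.93 in Parental, and these ranges overlapped. By coding length the shares of CDK4 were lower, at 73% with ZC3H7A and 76.1% with ZC3H7B, against 59.4% in the control.

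The inhibitors did not move as a group. CDKN1B, which encodes p27, had 1818, 1779 and 1782 counts with ZC3H7A, all below the control at 2411, 2552 and 2627 (log2 fold change -0.50, SE 0.0450, limma adjusted p = 9.33e-07). With ZC3H7B it had 2378, 2525 and 2512, overlapping with the control (log2 fold change -0.03, 95% confidence interval -0.13 to 0.07, limma adjusted p = 0.53). The difference between the overexpressed proteins was itself called (log2 fold change -0.46, SE 0.0450, limma adjusted p = 6.19e-06). Its counts in DD were 1949, 1831 and 2041, against 1739, 1787 and 1765 in Parental. Those groups did not overlap, yet the gene was not called (log2 fold change 0.14, 95% confidence interval -0.02 to 0.29, limma adjusted p = 0.17).

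CDKN2C, which encodes the INK4 protein p18, rose with ZC3H7B. It had 2903, 2840.3 and 2819.7 counts there, all above the control at 2343, 2383 and 2367 (log2 fold change 0.27, SE 0.0466, limma adjusted p = 2.33e-04). With ZC3H7A it had 2300.1, 2478 and 2200.0, on both sides of the control (log2 fold change -0.03, 95% confidence interval -0.13 to 0.08, limma adjusted p = 0.63). The direct comparison of ZC3H7A with ZC3H7B gave -0.30 (limma adjusted p = 2.79e-04). CDKN2C had 1969, 1637 and 1664 counts in DD, all above Parental at 1512, 1602 and 1619, and was not called (log2 fold change 0.15, 95% confidence interval -0.03 to 0.34, limma adjusted p = 0.21).

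CDKN1C, which encodes p57 and is an imprinted gene of chromosome 11, was close to the filter on low values. It had 25.5, 20.4 and 22.9 normalized counts with ZC3H7B, below all controls at 39.7, 43.5 and 42.8 (log2 fold change -0.85, SE 0.177, limma adjusted p = 9.66e-04). With ZC3H7A it had 46.2, 38.5 and 27.2, which overlapped with the control (log2 fold change -0.20, 95% confidence interval -0.58 to 0.19, limma adjusted p = 0.32). ZC3H7A exceeded ZC3H7B by a log2 fold change of 0.65 (limma adjusted p = 0.00984).

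In DD the counts of CDKN1C were 32.2, 21.3 and 27.4, against 88.8, 46.8 and 34.9 in Parental, from 9 to 17 reads a library in DD and 16 to 40 in Parental. No DD library reached the lowest Parental one, but the spread in Parental was large and the gene was not called (log2 fold change -0.96, 95% confidence interval -1.73 to -0.18, limma adjusted p = 0.0613). Without Parental replicate 3 it was -1.25 and passed (limma adjusted p = 0.00951). Together with CDK6 this made 5 members called lower in DD without that library, where 3 were called with it.

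RB1, the pocket protein that CDK4 and CDK6 phosphorylate, was called in all 4 comparisons, as CCND1 was. It had 1669.6, 1497 and 1887 counts with ZC3H7A, against 3818, 3798 and 3771 in the control, a 2.26-fold lower mean (log2 fold change -1.18, SE 0.0713, limma adjusted p = 3.35e-08). With ZC3H7B it had 2381, 2554 and 2651, between both other groups and without overlap with either (log2 fold change -0.59 against the control, SE 0.0713, limma adjusted p = 1.44e-05). ZC3H7A against ZC3H7B gave -0.59 as well (limma adjusted p = 3.61e-05). With ZC3H7A, 6.96% of the tested genes had a log2 fold change as low or lower, and with ZC3H7B 20% had.

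RB1 rose in DD. It had 3426, 3025 and 3254 counts there, all above Parental at 2069, 1792 and 1854, a 1.70-fold higher mean (log2 fold change 0.76, SE 0.0782, limma adjusted p = 2.85e-05). Its 10 nearest tested coding genes on chromosome 13 had a median log2 fold change of 0.26 in DD, 6 of them called higher and none lower. With ZC3H7A the same neighbours had a median of -0.29, with 7 called lower and none higher, and the part of the position was not tested.

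Both extremes of codon ending can be read against genes of like composition. With ZC3H7A, the 1014 tested genes within 2.5 percentage points of the A or T share of RB1 had a median log2 fold change of -0.73, and RB1 stood at -1.18. With ZC3H7B the median of such genes was -0.59, which is the value of RB1 itself. In DD it was 0.11, against 0.76 for RB1.

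CCND1 lay at the other end. The 495 genes of like share had a median of 0.36 with ZC3H7A, close to the 0.40 of CCND1, and of 0.20 with ZC3H7B, where CCND1 stood at -0.12. In DD the median of like genes was 0.05, and CCND1 stood at -2.71. CCND3, whose share of 21.9% is low too, had 0.36 with ZC3H7A and 0.36 with ZC3H7B, where genes of like share had medians of 0.33 and 0.20.

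CDK4 and CDK6 each stood apart from genes of like share on overexpression. Genes alike to CDK4 had a median log2 fold change of 0.00 with ZC3H7A and 0.01 with ZC3H7B, while CDK4 rose in both. Genes alike to CDK6 had medians of 0.08 and 0.09, while CDK6 fell in both.

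The fit was repeated after the trend of each library with this share had been removed. With ZC3H7A, RB1 then stood at -0.46 and was still called, while CCND1 at 0.04 (limma adjusted p = 0.31) and CCND3 at 0.08 (limma adjusted p = 0.0632) no longer were. CCND2 at -0.29 and CDKN1C at -0.54 became called as lower, so that 1 member was called higher and 5 lower with ZC3H7A. With ZC3H7B, RB1 stood at 0.02 (limma adjusted p = 0.59), and CDKN1B at -0.14 became called (limma adjusted p = 0.00647). Between ZC3H7A and ZC3H7B, CCND3 became called as lower with ZC3H7A (-0.11, limma adjusted p = 0.0208), and CCND2 lost its call (0.08, limma adjusted p = 0.14). In DD no member's call changed. The signed distance of ZC3H7A replicate 3 from its group mean also ran with this share, at a correlation of 0.70. In ZC3H7A replicates 1 and 2 the correlation was -0.48 and -0.57. ZC3H7B replicates 1, 2 and 3 gave -0.60, 0.05 and 0.52, and the control libraries -0.04 to 0.03. These were taken across 12228 genes, which are not independent replicates, and genes without a share were given the median share.

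**Figure D4:**
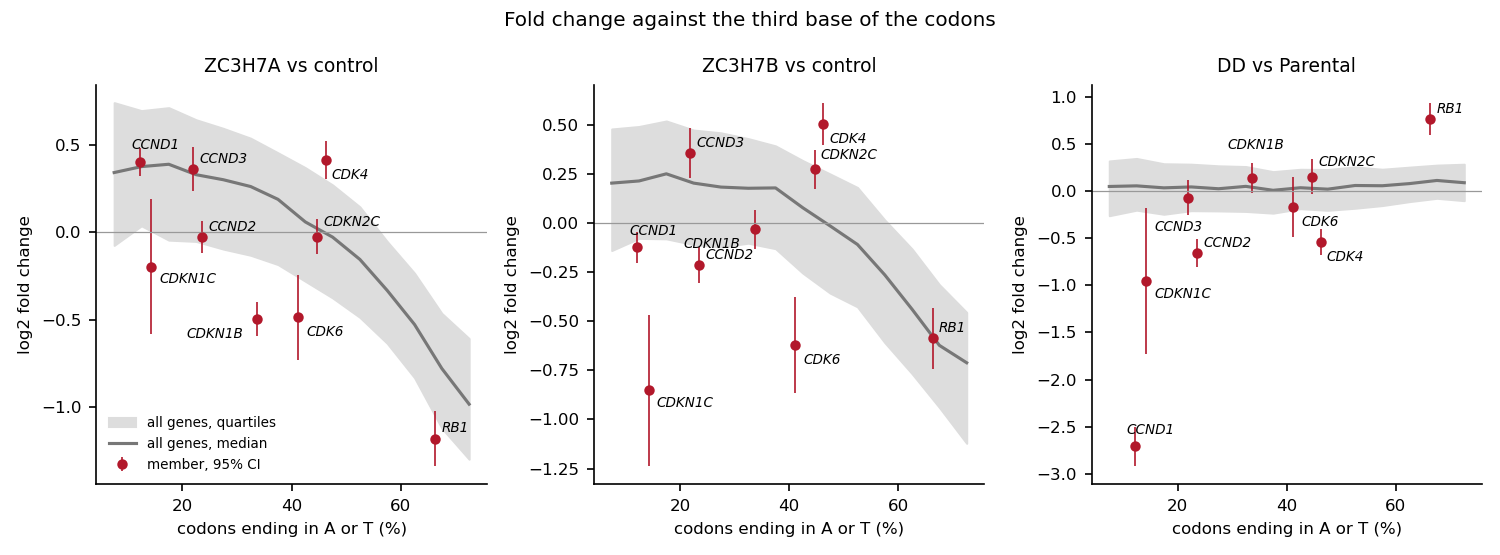
Log2 fold change (y axis) against third-base A or T content (x axis, % of codons) for ZC3H7A against control, ZC3H7B against control and DD against Parental; red points are the 9 genes with 95% confidence intervals, the grey line is the median of all tested coding genes in windows of 5 percentage points and the band spans their quartiles. The grey line falls towards high shares in both overexpression panels and stays within 0.2 of 0 in the DD panel, where CCND1 lies at -2.71.

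The genes that act with or downstream of these regulators were read from lists. Their counts stand beside 34.7% higher and 41.2% lower of all tested genes with ZC3H7A, 32% and 37.6% with ZC3H7B, and 14.7% and 14.8% in DD. The relatives of RB1 fell on overexpression: RBL1 (p107) had 805, 763 and 975 counts with ZC3H7A, against 1607, 1559 and 1515 in the control (log2 fold change -0.89, limma adjusted p = 6.58e-07), and RBL2 (p130) had 2745, 2643 and 3011, against 4238, 4026 and 4032 (log2 fold change -0.55, limma adjusted p = 1.87e-06). With ZC3H7B they fell by 0.29 and 0.71 on the log2 scale (limma adjusted p = 0.00538 for RBL1 and 3.41e-07 for RBL2). E2F1, an activating E2F factor, rose with both proteins: it had 4587, 4369 and 4025 counts with ZC3H7A and 4195, 4087 and 3967 with ZC3H7B, against 2345, 2392 and 2363 in the control. Of the 12 pocket, E2F and DP genes, 3 rose and 3 fell with ZC3H7A and 5 rose and 2 fell with ZC3H7B. With the codon trend removed, 6 rose and 5 fell with ZC3H7A and 8 rose with ZC3H7B. In DD 2 rose, namely RBL1 (log2 fold change 0.43, limma adjusted p = 0.00208) and E2F1 (0.37, limma adjusted p = 8.70e-04), and 1 fell, which was E2F5 (-0.37, limma adjusted p = 0.00986), named after its values were seen.

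More E2F target genes rose than fell in DD and with each overexpressed protein. In DD, 19 of 22 rose and none fell, with a median log2 fold change of 0.52, against 0.01 over all tested genes. MCM6, a subunit of the replicative helicase, had 7991, 7749.6 and 7497 counts in DD, against 3588, 3523 and 4899.5 in Parental (log2 fold change 0.97, limma adjusted p = 5.28e-05). Parental replicate 3 was the Parental library closest to DD for MCM6. It was so too for the helicase gene MCM2, chosen after its values were seen, which had 9459, 9683 and 7389 counts in DD, against 3464, 3949 and 8688 in Parental. For RBL1 it was the farthest, at 1285, against 1561 and 1413 in the other Parental libraries. Without Parental replicate 3 the count was again 19, without DD replicate 1 or Parental replicate 2 it was 13, and without the mean-variance trend in limma it was 12. Of 14 mitotic proliferation markers 8 rose and none fell in DD. That count was 13 without Parental replicate 3 and 3 to 5 without any 1 of the other 5 libraries. With ZC3H7A 9 of these markers rose and 4 fell, where 75.9% of all genes were called, and with ZC3H7B 9 rose and 2 fell, where 69.6% were called. With the codon trend removed none of these markers was called lower with either protein.

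With ZC3H7B, 16 of the 22 E2F targets rose and 3 fell (median 0.31), and with ZC3H7A 12 rose and 5 fell (median 0.16), against medians of -0.06 and -0.07 over all genes. With the codon trend removed none of the 22 was called lower with ZC3H7B. Between the proteins 14 targets were lower with ZC3H7A and 2 higher, where 20.4% of all genes were called lower and 23.9% higher. Their median log2 fold change was -0.19, against 0.008 over all genes. The cyclins E, which bind CDK2 after the D-type cyclins have acted, split on overexpression. CCNE1 had 2585, 2499 and 2433 counts with ZC3H7A and 2163, 2178 and 2230.2 with ZC3H7B, above 1726, 1698 and 1728 in the control. CCNE2 had 205, 202 and 284 with ZC3H7A and 305, 352 and 371 with ZC3H7B, below 519, 503 and 536 in the control. In DD CCNE2 rose (log2 fold change 0.53, limma adjusted p = 0.00202), and CCNE1 did not pass (-0.08, limma adjusted p = 0.39).

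**Figure D5:**
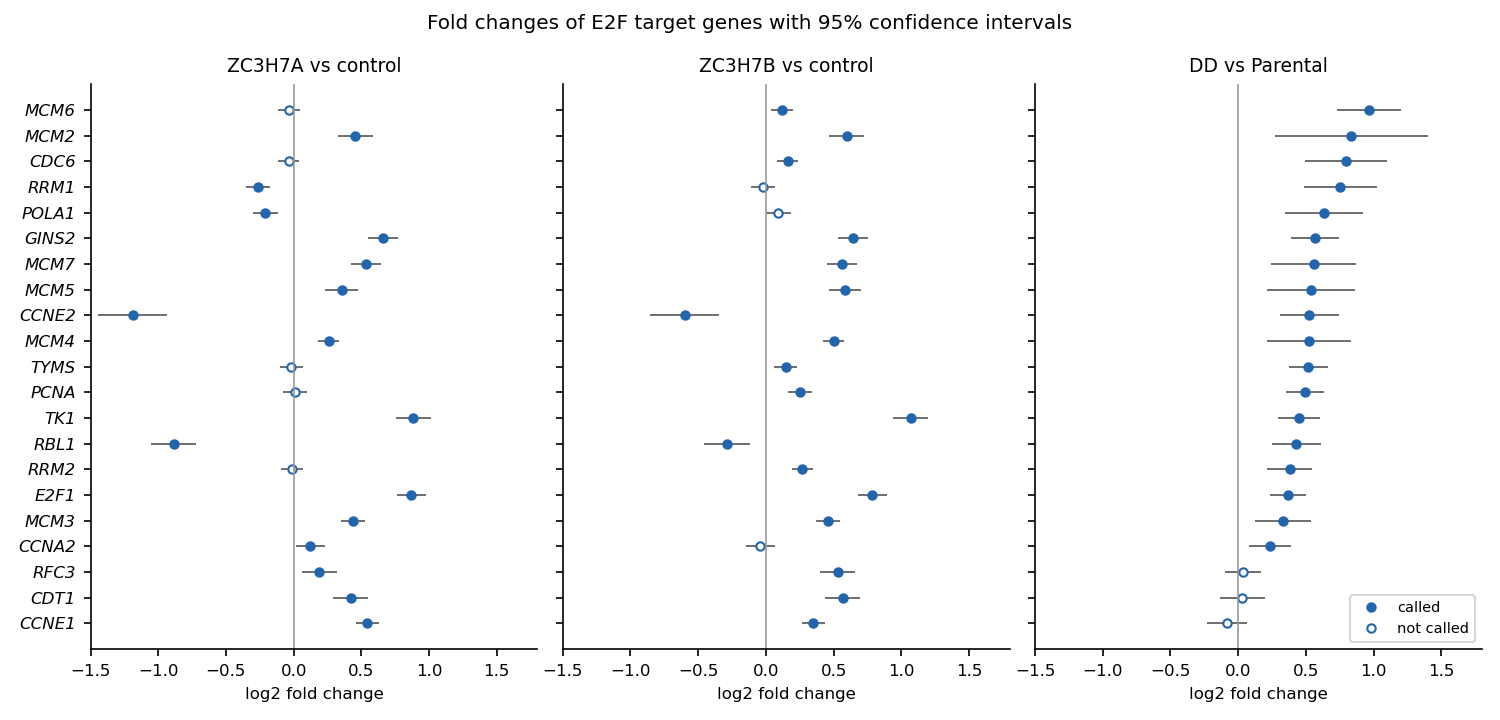
Log2 fold change (x axis) of E2F target genes, sorted by their value in DD against Parental, with 95% confidence intervals from limma; filled points were called and open points were not. In DD all filled points lie above 0, and CCNE2 and RBL1 lie below 0 in both overexpression panels.

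Other CDK inhibitors rose and fell side by side on overexpression. CDKN2A, which encodes p16 and ARF, had 9605, 9001 and 8378 counts with ZC3H7A and 9276, 8876 and 8720.0 with ZC3H7B, above 6338, 6488 and 6448 in the control, and it was lower in DD than in Parental (log2 fold change -0.36, limma adjusted p = 0.00138). CDKN2D, which encodes the INK4 protein p19, had 285, 296 and 253 counts with ZC3H7A and 300.1, 313 and 287 with ZC3H7B, against 159.6, 158 and 169.8 in the control. CDKN2B, which encodes p15, fell with ZC3H7A (log2 fold change -0.76, limma adjusted p = 9.83e-06) and did not pass with ZC3H7B (-0.19, limma adjusted p = 0.0871). In all, 2 of 4 such genes rose and 2 fell with ZC3H7A, 2 rose and 1 fell with ZC3H7B, and 1 fell in DD.

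The other lists moved both ways. Of 10 further G1 cyclins, CDKs and activators, 6 rose and 3 fell with ZC3H7A, 5 rose and 2 fell with ZC3H7B and 3 rose and none fell in DD. CDC37, a chaperone partner that loads CDK4, rose with ZC3H7A (log2 fold change 0.91, limma adjusted p = 3.83e-09) and ZC3H7B (0.83, limma adjusted p = 1.48e-08). Of 19 tested genes of the turnover of D-type cyclins and p27, 10 rose and 6 fell with ZC3H7A, 8 rose and 7 fell with ZC3H7B and 5 rose and 3 fell in DD. These counts are near the shares of all genes called, 75.9% with ZC3H7A and 69.6% with ZC3H7B, and with the codon trend removed 3 fell with ZC3H7A and 2 with ZC3H7B. FBXO31, an F-box protein that targets cyclin D1, rose with ZC3H7A (0.78, limma adjusted p = 5.00e-08) and with ZC3H7B (0.36, limma adjusted p = 4.09e-05). SKP2, the F-box protein that targets p27, fell with ZC3H7B (-0.30, limma adjusted p = 3.33e-05) and was not called with ZC3H7A (-0.08, limma adjusted p = 0.0773).

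Of 15 factors known to act on transcription of these genes, 5 rose and 4 fell with ZC3H7A, 6 rose and 5 fell with ZC3H7B and 4 rose and 1 fell in DD. With TMM factors 8 rose with ZC3H7A, with the codon trend removed 8 fell with ZC3H7A, and without the mean-variance trend none rose in DD. JUN, a factor that acts on the CCND1 promoter, fell with ZC3H7A (log2 fold change -0.71, limma adjusted p = 2.77e-07), where CCND1 rose, and with ZC3H7B (-0.26, limma adjusted p = 0.00116), where CCND1 fell. JUN rose in DD (0.22, limma adjusted p = 0.0217), where CCND1 fell. The part of JUN in the level of CCND1 was not tested. Of 7 imprinted neighbours of CDKN1C, 3 rose and 2 fell in each overexpression and 1 fell in DD. IGF2, a growth factor gene of that cluster, averaged 193 counts with ZC3H7A and 184 with ZC3H7B, against 533 in the control (limma adjusted p = 1.91e-08 with ZC3H7A and 2.64e-08 with ZC3H7B), unlike CDKN1C, which was called with ZC3H7B but not with ZC3H7A.

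Some transcripts followed the members closely over the 15 libraries, each centred on the mean of its experiment, among 11095 genes. The gene most like CCND1 was SPINT2, a membrane-bound serine protease inhibitor, at a correlation of 0.995. It had 248, 291 and 265 counts in DD, against 2216, 2339.5 and 2124 in Parental (log2 fold change -3.05). TFAP2A, an AP-2 transcription factor, was next at 0.993 but with a smaller log2 fold change in DD, at -0.53, since a correlation does not weigh the size. RB1 was followed by CCDC132 and SNX6, which act in membrane trafficking, at 0.987 each, and CDK4 by SNX12, a sorting nexin, at 0.987 and by the ribosomal protein gene RPL10A, which has near-identical copies in the genome, at 0.982. CDK6 was most like PDZD8 at 0.976 and CCND2 most like the nuclear pore gene NUP43 at 0.984. CDKN1B was followed by CNOT10, a subunit of the CCR4-NOT deadenylase, at 0.972. CCND3 was most like MCAT at 0.97, CDKN2C most like NEU1 at 0.957 and CDKN1C, with its few reads, most like PABPC1 at 0.874. The points share libraries and group means, and the correlations describe likeness of pattern only.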

How the data were processed

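The authors deposited counts already divided by size factors, which are a signal and not raw counts. STAR 2.7.10b, HTSeq, DESeq2 and hg19 are named, per the submitters' processing notes. Per the labels, the overexpression libraries were made with a TruSeq v2 kit from lysates in a polysome buffer, and EIRNA Bio made the depletion libraries. Dividing the deposited signal by what 1 read is worth in its library gave whole reads for 100% of values (tolerance 0.01). Values were tested as log2(value + 1) for genes reaching 10 in 3 or more of the fitted libraries, with limma 3.58.1 (R 4.3.3, empirical Bayes with a mean-variance trend, two-sided, Benjamini-Hochberg adjustment over all tested genes, threshold 0.05). The 9 overexpression libraries shared a fit, and DD and Parental had their own. Fold changes are on this log2 scale and understate the change of low genes. As alternatives, edgeR 4.0.16 and DESeq2 1.42.0 were run on these reads. Other settings were TMM or median-of-ratios scaling, pseudocounts 0.5 and 8, no filter or a mean of at least 100, no trend, fits of 2 groups, removal of a spline with 4 degrees of freedom on the A or T share, and leaving out each replicate.

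The members and gene lists were chosen with earlier results of these data known. Named are the members, ZC3H7A and ZC3H7B, up to 4 called list genes changed at least 1.5-fold per comparison, 12 set list genes and the 2 genes most correlated with a member; genes sharing exon bases with a member and MCM2 were added after seeing values. Names were matched to GENCODE 29 on GRCh38 (34229 current, 1304 older, 20240 unmatched), used for lengths, gene order and coding sequences; an hg19 annotation was not used here. Scripts were tested on simulated data. Some genes that these rules pick are not reported here, though list counts and medians include them.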

Additional observations from a re-analysis of the deposited data

Results flagged for a closer look

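CCND1 was higher than the control in every ZC3H7A library and lower than it in every ZC3H7B library, and the test of ZC3H7A against ZC3H7B, which is the difference between both effects, gave a log2 fold change of 0.53 (limma adjusted p = 3.92e-07, n = 3 libraries each). The difference ranged from 0.35 to 0.54 over 18 other settings and stayed called in each. The fall with ZC3H7B alone was not called with TMM or median-of-ratios scaling or with edgeR or DESeq2 on recovered reads. The rise with ZC3H7A alone was not called with the codon trend removed (log2 fold change 0.04, limma adjusted p = 0.31).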

How the results depend on the processing

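Of 635 alternative values of the 36 member results, 597 kept direction and side of the threshold. CCND1, CCND2, CDK4 and RB1 in DD kept theirs in all 17. Removing the codon-ending trend gave 1 member higher, 5 lower and 4782 genes lower with ZC3H7A, and 0.022 for RB1 with ZC3H7B. With TMM, median-of-ratios, edgeR and DESeq2, in that order, CCND2 with ZC3H7A was 0.046, 0.065, 0.0046 and 0.027, CDKN2C with ZC3H7A 0.049, 0.067, 0.0085 and 0.032, and CDKN1B with ZC3H7B 0.059, 0.051, 0.026 and 0.019, with the opposite sign and uncalled. CCND3 between the proteins was -0.014 (TMM), -0.020 (edgeR) and -0.11 without the codon trend, where it was called (limma adjusted p = 0.0208) and CCND2 was not (0.082, limma adjusted p = 0.14). With ZC3H7B, members changed 1.5-fold were 1 higher (TMM, median-of-ratios) and 1 lower (both, edgeR, DESeq2). Between the proteins they were 0 higher (pseudocount 8, mean of at least 100, codon trend) and 0 lower (median-of-ratios, codon trend). Genes called higher in DD were 1700 without the limma trend. Of 1136 alternative list counts, 98 moved by over 1.5 times. The causes were not tested.

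Leaving out 1 library gave 1561 to 3564 genes higher in DD, 3 to 5 members lower in DD, 1.5-fold members of 1 to 2 lower with ZC3H7A, 1 to 3 lower with ZC3H7B and 0 to 1 higher or lower between the proteins. Log2 fold changes ranged from -0.36 to 0.0074 (CDKN1C) and -0.072 to 0.014 (CDKN2C) with ZC3H7A, from -0.050 to 0.070 (CCND3) and -0.013 to 0.27 (CDK6) between the proteins, and from -0.14 to 0.0025 (CCND3) and -0.34 to 0.0091 (CDK6) in DD.

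With the replicate number as a block no member's call changed, 3 proliferation markers rose in DD, and 2168 genes rose and 2374 fell in DD. Same-numbered libraries deviated together in some pairs (ZC3H7A and ZC3H7B replicate 3, correlation 0.72) and not in others (DD and Parental replicate 3, -0.27). A pair of unlike number also did so (ZC3H7A replicate 2 and ZC3H7B replicate 1, 0.56). Whether the numbers pair the libraries cannot be told from these values.

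CDKN1C rests on 9 to 86 reads a library, so its values are the least precise.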
